A study of Oryza sativa with 8 samples.

Results

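A set of rice genes had transcript ratios that moved in the same direction under abscisic acid (ABA) and under gibberellin (GA) in scutellum callus. Each member is a probe with 1 gene whose mean log2 ratio of treated over untreated callus was at least 0.4 under both hormones, or at most −0.4 under both, with the same sign on all 8 arrays. The rule was met by 109 probes for 104 genes, out of 17769 probes for 15641 genes. Of these, 40 probes for 39 genes were raised by both hormones, which is 0.225 percent of the probes fitted, and 69 probes for 65 genes were lowered by both, which is 0.388 percent. A further 5 genes (GLU14, Agglutinin, PP2C68, PCNA and RPA1C) were set aside by name. All of these but PCNA met the numeric rule. The ABA condition alone was met by 2.88 percent of probes upward and 4.23 percent downward, the GA condition by 7.26 and 5.01 percent. With the same thresholds in opposite directions, 182 probes were raised by ABA and lowered by GA, and 293 the reverse. Whether the shared set exceeds what unrelated responses would give was not tested. Only 18 of the 104 genes carry a name beyond a locus or clone number in the annotation, 10 of them raised and 8 lowered. The other members are given by their locus number, and no function can be stated for them.

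The groups were callus exposed to 50 µM of ABA (4 arrays) and callus exposed to 50 µM of GA (4 arrays). Each array also carried untreated callus in the other dye. Per the labels, callus came from the scutellum (the grain embryo's absorptive organ) of the japonica variety Nipponbare. The labels also give 30 d of growth on medium with 10 µM of the synthetic auxin 2,4-D before 3 d of hormone treatment. How the untreated callus was kept over those 3 d was not checked here. On ABA arrays 24 and 20 and GA arrays 04 and 05 the treated sample was in Cy3, and on ABA arrays 19 and 23 and GA arrays 07 and 08 it was in Cy5. Values are log2 of treated over untreated callus in this array order, then the mean ± SD over n = 4 arrays. No level in callus can be read from a ratio, so the identity of the tissue could not be checked against marker levels.

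ABA is the hormone of seed maturation, dormancy and water stress, and acts through receptors that release SnRK2-type kinases from PP2C phosphatases. GA is the hormone of germination and stem growth, and acts through a receptor that removes DELLA growth repressors. In cereal grain they are known for opposing effects on genes of germination. Here the members were chosen by these same ratios, so their direction and size are a description and were not tested again.

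**Figure D1:**
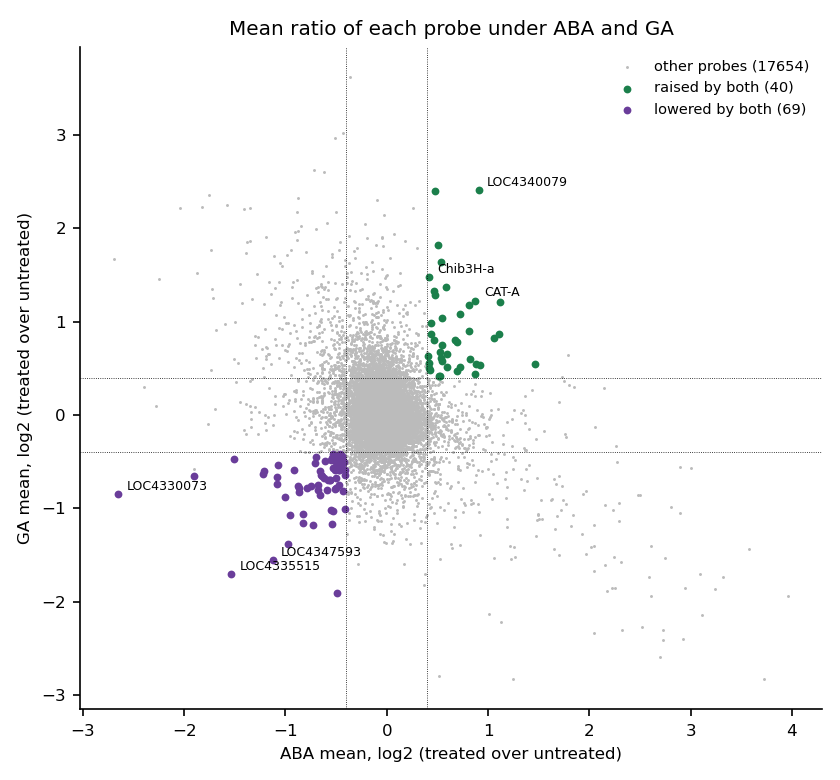
Mean log2 ratio of treated over untreated callus under ABA (horizontal axis) and under GA (vertical axis) for each of 17763 probes. The 40 probes raised by both (green) lie in the upper right corner beyond 0.4, the 69 lowered by both (purple) in the lower left corner beyond −0.4, and the dotted lines mark these thresholds.

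The named genes raised by both hormones included enzymes of peroxide removal, of central carbon metabolism and of lipid handling. CAT-A, a catalase that breaks down hydrogen peroxide, was among the strongest named genes by the weaker of its responses. Its probe 10189 read 0.72, 0.76, 1.0001 and 1.02 under ABA and 1.06, 0.94, 1.45 and 1.45 under GA. The means were 0.88 ± 0.16 under ABA (1.84-fold) and 1.22 ± 0.27 under GA (2.34-fold), and the arrays of the hormones overlapped. Its other probe, 7173, also met the rule. It read 0.34, 0.47, 0.52 and 0.40 under ABA and 0.86, 0.76, 0.94 and 0.91 under GA (0.43 ± 0.08 and 0.87 ± 0.08). There every GA array was above every ABA array. The other gene with a CAT name, CAT-B, was no member (−0.10 ± 0.10 under ABA, −0.26 ± 0.07 under GA).

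LTP110-A, a lipid transfer protein, read 0.55, 0.63, 1.02 and 1.05 under ABA and 0.92, 0.97, 1.35 and 1.48 under GA (0.81 ± 0.26 and 1.18 ± 0.28). In both hormones the arrays with the treated sample in Cy5 were the higher ones. PLA2-III, named as a phospholipase A2 that frees fatty acids from membrane lipids, was tighter. It read 0.70, 0.73, 0.75 and 0.72 under ABA and 1.13, 1.12, 1.05 and 1.05 under GA. Its means were 0.72 ± 0.02 under ABA and 1.09 ± 0.04 under GA, with every GA array above every ABA array.

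Carbon metabolism was represented by PPDK2 and FBA3. PPDK2, a pyruvate, phosphate dikinase that interconverts pyruvate and phosphoenolpyruvate, read 0.88, 0.83, 0.94 and 0.87 under ABA and 0.57, 0.59, 0.57 and 0.44 under GA. It was higher under ABA (0.88 ± 0.05) than under GA (0.54 ± 0.07) on every array. FBA3 (AldC-1), a fructose-bisphosphate aldolase of glycolysis, was among the members nearest the threshold. It read 0.36, 0.32, 0.46 and 0.51 under ABA and 0.43, 0.34, 0.58 and 0.66 under GA (0.41 ± 0.08 and 0.50 ± 0.15), with overlapping arrays. Its relatives ALDP (0.29 under ABA, 0.04 under GA) and AldC-alpha (0.10 under ABA, −0.025 under GA) were no members.

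Among genes of signalling, JAZ12 (TIFY11D), of the family that represses jasmonate responses, was the member with the widest split between dyes among the named genes. It read 0.83 and 0.93 under ABA with the treated sample in Cy3, but 0.20 and 0.14 with it in Cy5. Under GA it read 0.83, 0.81, 0.61 and 0.45. The means were 0.53 ± 0.41 under ABA and 0.67 ± 0.18 under GA, so the ABA value rests mainly on arrays 24 and 20. CML1 (OsCAM61), a calmodulin-like calcium sensor, read 0.63, 0.62, 0.84 and 0.80 under ABA and 0.53, 0.50, 0.49 and 0.54 under GA. Its mean was 0.72 ± 0.12 under ABA and 0.51 ± 0.02 under GA, and each ABA array exceeded each GA array.

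Chib3H-a, also listed as RIXI and XIP-I, belongs to the chitinase-like proteins that inhibit xylanases. It had the narrowest spread of the named genes under ABA, with 0.43, 0.42, 0.42 and 0.42, and read 1.44, 1.45, 1.497 and 1.53 under GA. The mean was 0.42 ± 0.01 under ABA (1.34-fold) and 1.48 ± 0.04 under GA (2.79-fold). The cell wall was represented by EXLA4, an expansin-like A protein. It read 0.44, 0.53, 0.34 and 0.35 under ABA and 0.57, 0.64, 0.51 and 0.52 under GA (0.415 ± 0.09 and 0.56 ± 0.06), and the highest ABA array reached into the GA range. ILL2, of the family of hydrolases that free auxin from amino acid conjugates, was the raised member closest to the threshold. It read 0.42, 0.30, 0.48 and 0.41 under ABA and 0.52, 0.32, 0.92 and 0.78 under GA (0.40 ± 0.08 and 0.64 ± 0.26).

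**Figure D2:**
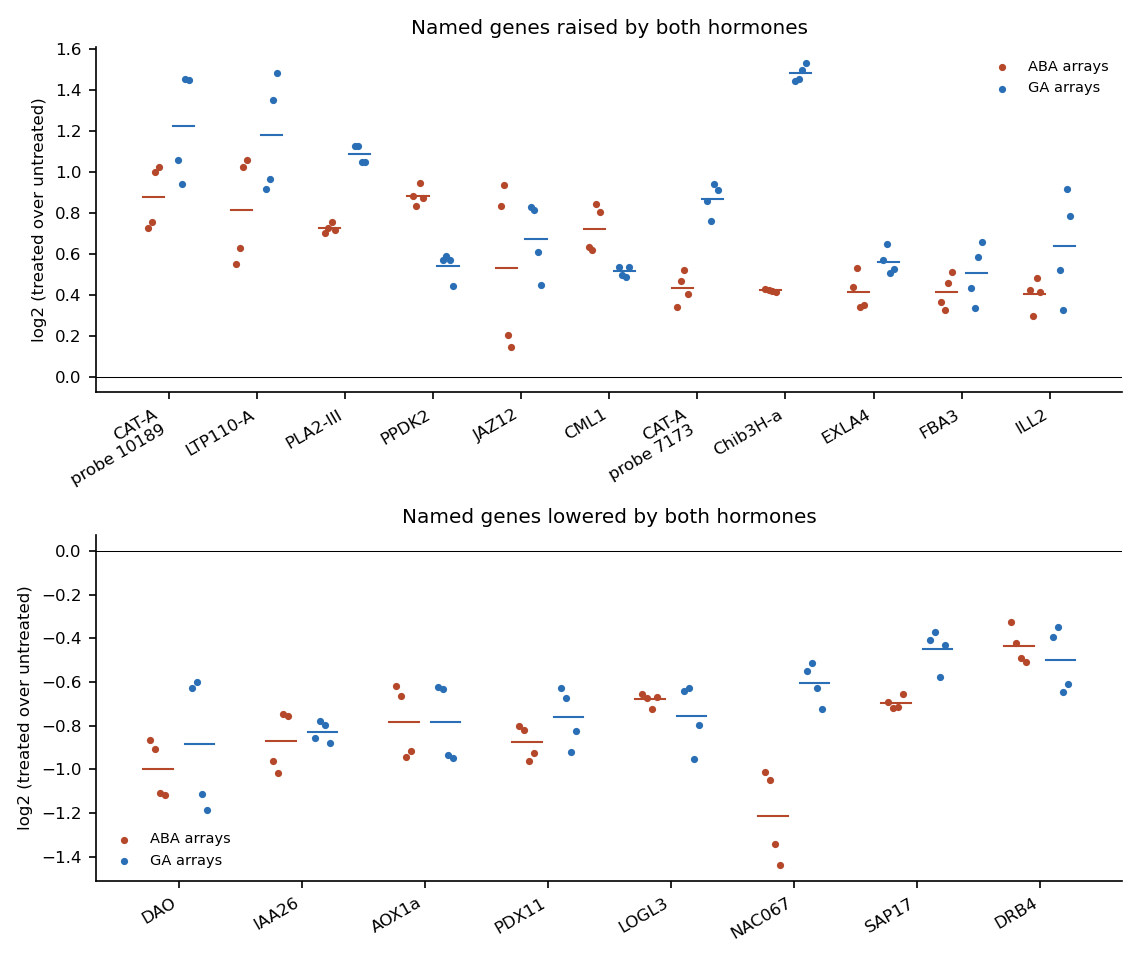
Log2 ratio of treated over untreated callus on each array (points) and its mean (line) for the named genes, with the 4 ABA arrays left of the 4 GA arrays and the genes raised by both above those lowered by both. No point crosses 0. Chib3H-a has 4 GA arrays between 1.44 and 1.53 above 4 ABA arrays between 0.42 and 0.43, while the AOX1a arrays of both hormones cover the same range.

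The named genes lowered by both hormones included 3 of auxin and cytokinin biology, 2 of metabolism and 3 others. DAO, a dioxygenase that oxidises and so inactivates auxin, read −0.86, −0.91, −1.11 and −1.12 under ABA and −0.63, −0.60, −1.11 and −1.19 under GA. Its means were −1.0001 ± 0.13 under ABA (2.00-fold lower) and −0.88 ± 0.31 under GA (1.84-fold lower). IAA26, of the Aux/IAA repressors of auxin responses, read −0.96, −1.02, −0.75 and −0.76 under ABA and −0.86, −0.78, −0.80 and −0.88 under GA (−0.87 ± 0.14 and −0.83 ± 0.05). For both genes the arrays of the hormones overlapped. LOGL3, of the LOG family that activates cytokinin by releasing its free base, read −0.66, −0.67, −0.72 and −0.67 under ABA and −0.64, −0.63, −0.95 and −0.80 under GA (−0.68 ± 0.03 and −0.75 ± 0.15).

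AOX1a, the alternative oxidase of mitochondria, which passes electrons to oxygen around the cytochrome path, gave nearly the same mean under both hormones. It read −0.62, −0.66, −0.94 and −0.91 under ABA and −0.62, −0.63, −0.93 and −0.95 under GA. Both means were −0.78 (SD 0.17 for ABA and 0.18 for GA). In each hormone the Cy5 arrays were lower than the Cy3 arrays by a similar step. PDX11, of the synthesis of vitamin B6, read −0.80, −0.82, −0.96 and −0.93 under ABA and −0.63, −0.67, −0.92 and −0.82 under GA (−0.88 ± 0.08 and −0.76 ± 0.14).

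NAC067, a transcription factor of the plant NAC family, was lower under ABA than under GA on every array. It read −1.01, −1.05, −1.34 and −1.44 under ABA and −0.55, −0.51, −0.63 and −0.72 under GA. The means were −1.21 ± 0.21 under ABA (2.32-fold lower) and −0.60 ± 0.09 under GA (1.52-fold lower), with no overlap between the arrays of the hormones. SAP17, of the stress-associated zinc finger proteins, was also lower under ABA on every array. It read −0.69, −0.72, −0.71 and −0.65 under ABA and −0.41, −0.37, −0.58 and −0.43 under GA (−0.69 ± 0.03 and −0.45 ± 0.09). DRB4, named as a double-stranded RNA binding protein, read −0.33, −0.42, −0.49 and −0.51 under ABA and −0.39, −0.35, −0.64 and −0.61 under GA (−0.44 ± 0.08 and −0.50 ± 0.15), with overlapping arrays.

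The strongest members by their weaker response carry only locus numbers. LOC4331928 was the 1 raised member at 2-fold or more under both hormones. It read 1.08, 1.28, 1.01 and 1.10 under ABA and 1.29, 1.20, 1.33 and 1.03 under GA (1.12 ± 0.11 and 1.21 ± 0.13), with overlapping arrays. The lowered members had 2 at this size. LOC4335515 read −1.57, −1.59, −1.56 and −1.43 under ABA and −1.65, −1.61, −1.84 and −1.69 under GA (−1.53 ± 0.07 and −1.70 ± 0.10). LOC4347593 had means of −1.13 ± 0.04 under ABA and −1.56 ± 0.09 under GA. In both, each GA array was below each ABA array. Most members were smaller. The weaker of a probe's means was between 0.4 and 0.5 in size for 15 of the 40 raised and 27 of the 69 lowered probes.

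The raised probes had a median of 0.57 under ABA (range 0.40 to 1.46) and of 0.79 under GA (range 0.41 to 2.41). The lowered probes had a median of −0.56 under ABA (range −2.65 to −0.41) and of −0.66 under GA (range −1.90 to −0.41). The median of all 17763 probes was −0.0046 under ABA and −0.0049 under GA. The response to GA was the larger one for 28 of the 40 raised and 41 of the 69 lowered probes. Among the raised this order depended on the scaling: after quantile normalization GA was the larger for 17 of the 40, JAZ12 and LOC4331928 being among the 11 that turned, and the medians were 0.68 under ABA and 0.67 under GA. Among the lowered it was the larger for 40 of the 69. Arrays of the hormones overlapped for 19 raised and 45 lowered probes. Of the other raised probes, 7 had every ABA array above every GA array and 14 the reverse. Of the other lowered probes the counts were 14 and 10. Over all probes, 15.4 percent had ABA arrays all above GA arrays and 20.8 percent the reverse. These counts come from the values the rule used and are given without a test.

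**Figure D3:**
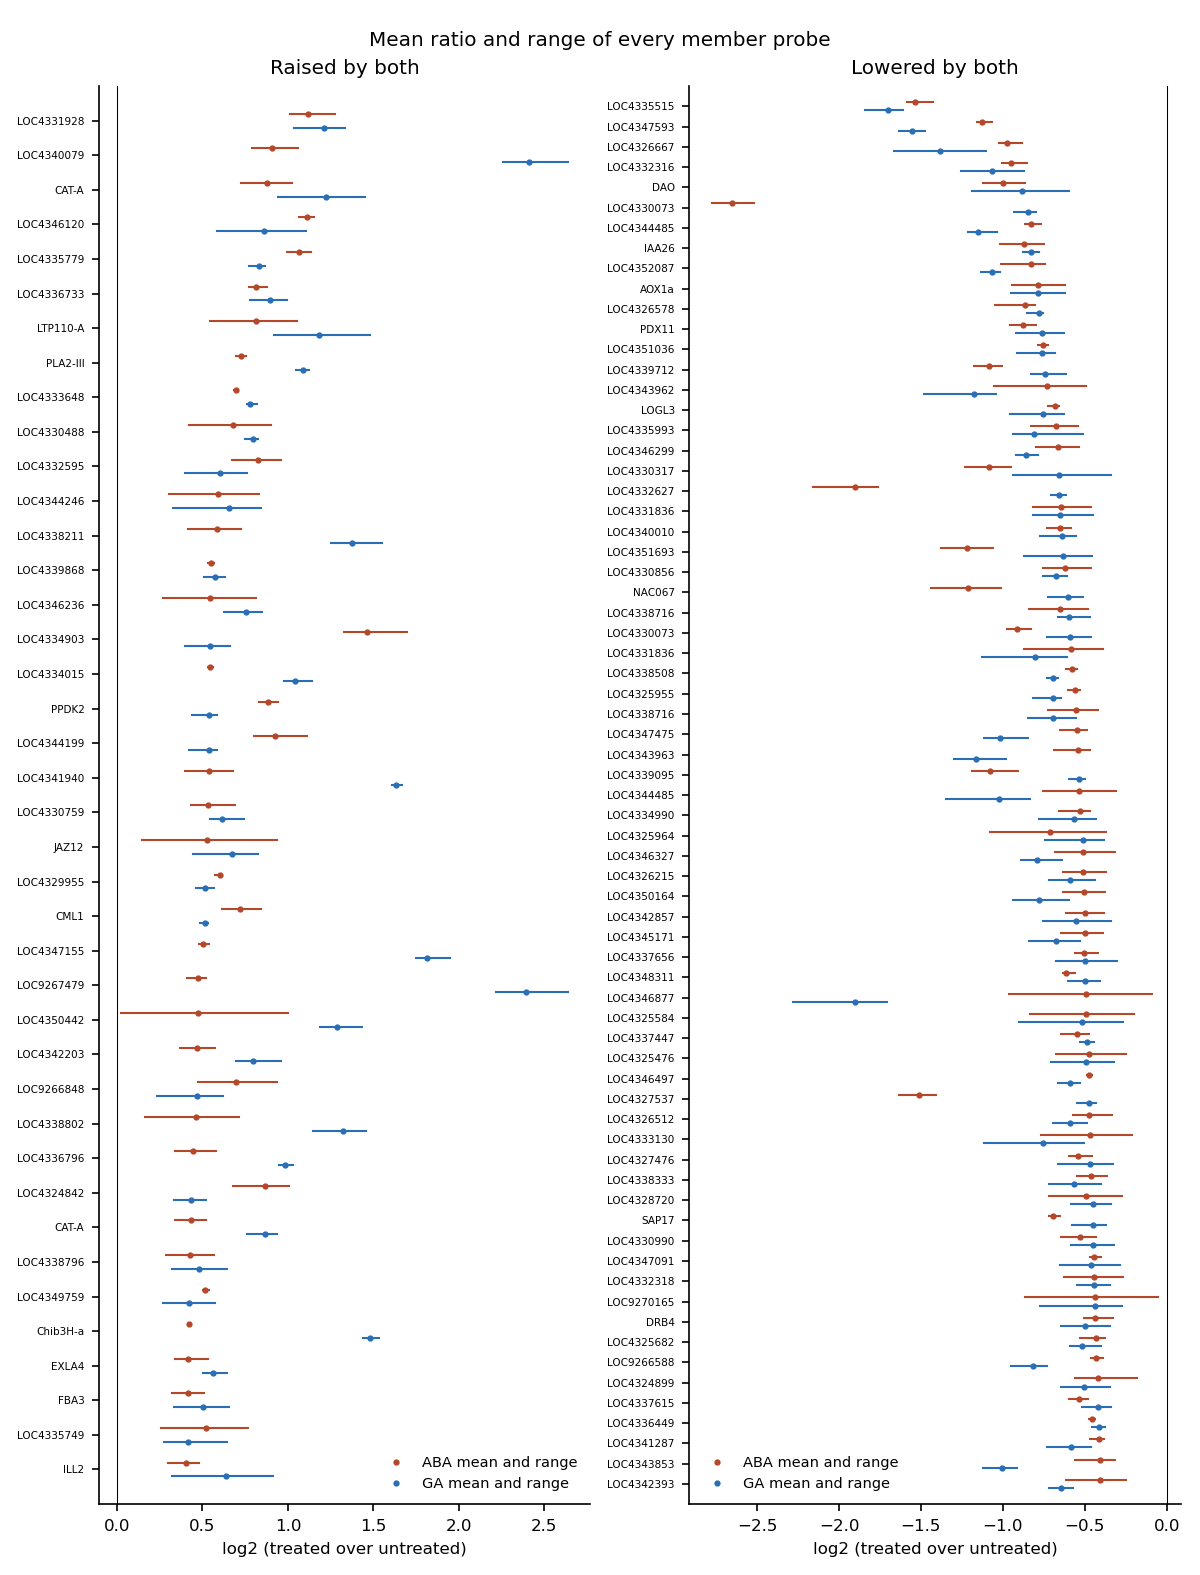
Mean (point) and range over 4 arrays (line) of the log2 ratio of treated over untreated callus under ABA and under GA for each of the 40 probes raised and 69 probes lowered by both hormones, ordered from the top by the weaker mean. A few probes, such as LOC9267479 and LOC4330073, have means far apart, while most lines of a pair overlap or lie close.

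The members with the most unequal responses were again without a name. Among the raised, LOC9267479 read 0.41, 0.47, 0.52 and 0.49 under ABA and 2.26, 2.21, 2.47 and 2.64 under GA (0.47 ± 0.05 and 2.40 ± 0.20, a difference of −1.92 for ABA minus GA). LOC4340079 (0.91 ± 0.11 under ABA, 2.41 ± 0.18 under GA) and LOC4347155 (0.50 ± 0.03 under ABA, 1.81 ± 0.09 under GA) had the same order. Among the lowered, LOC4330073 on probe 15770 was at −2.65 ± 0.12 under ABA (6.28-fold lower), against −0.85 ± 0.06 under GA. LOC4332627 was at −1.90 ± 0.19 under ABA and −0.66 ± 0.05 under GA. LOC4346877 had the reverse order, at −0.49 ± 0.45 under ABA and −1.90 ± 0.26 under GA. On ABA arrays 24 and 20 it read only −0.13 and −0.09, against −0.80 and −0.96 on arrays 19 and 23. At the other end, LOC4339868 had close means (0.55 ± 0.02 under ABA, 0.57 ± 0.06 under GA), which quantile normalization moved apart to 0.67 under ABA and 0.49 under GA. AOX1a, LOC4332318 and LOC9270165 were lowered with differences between the hormones of at most 0.002 in size.

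A second probe of the same gene read the same way in some genes and not in others. Of the member genes, 12 had more than 1 probe with a value. In 5 of them (CAT-A, LOC4330073, LOC4331836, LOC4338716 and LOC4344485) both probes met the rule. LOC4331836 read −0.59 ± 0.23 and −0.64 ± 0.18 under ABA and −0.80 ± 0.23 and −0.65 ± 0.16 under GA on its probes 712 and 17843. LOC4330073 was lower on both probes but by unequal amounts. Its probe 11121 gave −0.91 ± 0.07 under ABA, far from the −2.65 of probe 15770, and −0.59 ± 0.14 under GA. The other 7 genes had 8 further probes, none of them past 0.4 under both hormones, and 5 of the 8 had the sign of the member probe under both. Among these 5, probe 1496 of LOC4340010 and probe 17830 of LOC4337615 (−0.04 ± 0.06 under ABA, −0.08 ± 0.14 under GA) were near 0, with arrays of both signs. The rest of the 5 belonged to the raised genes LOC4338796 and LOC4349759. LOC4351693 was at −1.22 ± 0.16 under ABA and −0.63 ± 0.18 under GA on the member probe, but at 0.18 ± 0.04 and −0.03 ± 0.08 on probe 21175. LOC4340010 was at −0.65 ± 0.06 and −0.64 ± 0.10 on the member probe and near 0 on probe 1496. Which transcript each probe reports, and whether it also binds a related gene, was not tested.

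**Figure D4:**
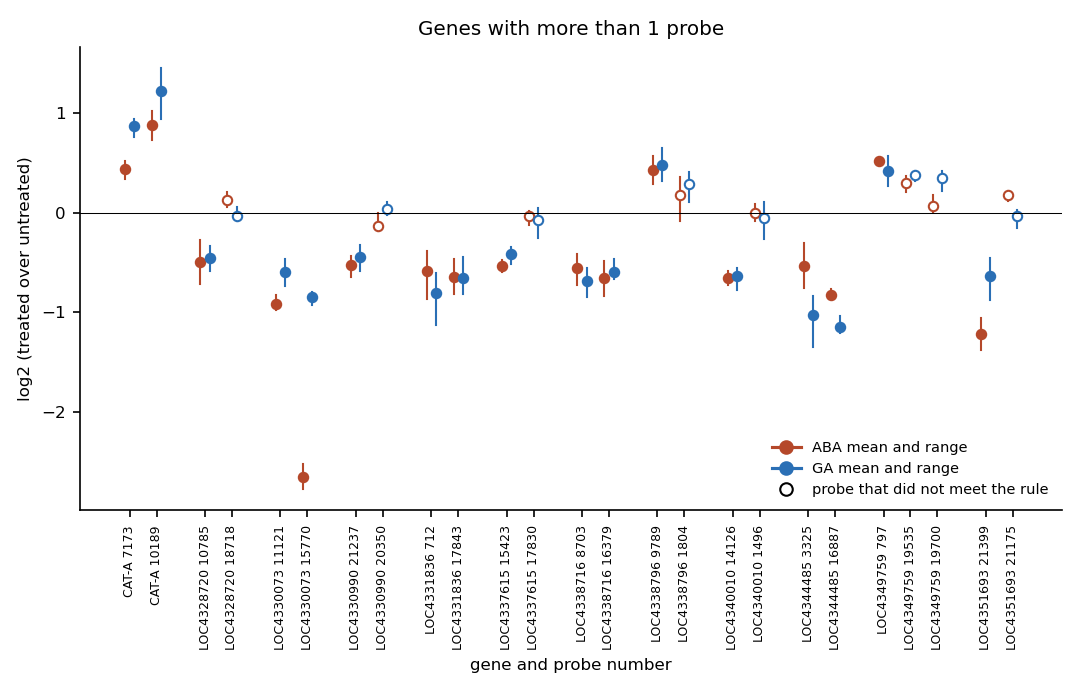
Mean (point) and range over 4 arrays (line) of the log2 ratio of treated over untreated callus under ABA and GA for every probe of the 12 member genes with more than 1 probe. Filled points are probes that met the rule and open points those that did not. Both probes of CAT-A lie above 0, whereas the second probe of LOC4351693 has a mean of 0.18 under ABA and −0.03 under GA, above its member probe.

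Neighbouring member genes, with at most 4 genes between them in the RefSeq order, formed 3 pairs. LOC4343962 and LOC4343963 lie next to each other with 0 genes between them. LOC4343962 was at −0.73 ± 0.28 under ABA and −1.18 ± 0.20 under GA, and LOC4343963 at −0.54 ± 0.10 under ABA and −1.16 ± 0.13 under GA. LOC4332316 (−0.95 ± 0.07 under ABA, −1.07 ± 0.20 under GA) and LOC4332318 (−0.45 ± 0.17 and −0.44 ± 0.08) have 2 genes between them. LOC4338796 (0.43 ± 0.16 and 0.48 ± 0.16) and LOC4338802 (0.47 ± 0.24 and 1.32 ± 0.15) have 4. Each of these pairs moved in 1 direction. How many such pairs an equal number of other genes on the array would form was not counted.

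In 11 families chosen by the names of the members, 1 gene each met the rule. IAA26 was 1 of 27 Aux/IAA probes (25 genes). Of these, 2 were called higher and 15 lower under ABA, and 10 higher and 10 lower under GA, by limma at a Benjamini-Hochberg adjusted p under 0.05. Over all 17763 probes the same fit called 18.0 percent higher and 23.7 percent lower under ABA (41.8 percent in all), and 26.2 percent higher and 22.8 percent lower under GA (49.0 percent in all). JAZ12 was 1 of 15 JAZ probes (12 genes), of which 2 were called higher and 5 lower under ABA, and 8 higher and 2 lower under GA. LOGL3 was 1 of 8 LOGL probes (3 higher and 3 lower under ABA, 2 higher and 3 lower under GA). Its relative LOGL6 was at −0.55 ± 0.11 under ABA and 0.53 ± 0.36 under GA. CML1 was 1 of 19 CML probes, with 5 higher and 3 lower under ABA and 7 higher and 4 lower under GA. SAP17 was 1 of 14 SAP probes (2 higher and 4 lower under ABA, 6 higher and 3 lower under GA). NAC067 was 1 of 11 NAC probes (3 higher and 3 lower under ABA, 0 higher and 6 lower under GA). EXLA4 was 1 of 4 EXLA probes, with 3 higher and 0 lower under ABA and 2 higher and 1 lower under GA. DRB4 was 1 of 6 DRB probes (0 higher and 3 lower under either hormone), and ILL2 1 of 7 probes with ILL, ILR or IAR names (2 higher and 1 lower under ABA, 2 higher and 0 lower under GA). The same fit called all 40 raised and all 69 lowered member probes under both hormones, where 41.8 percent of all probes were called under ABA and 49.0 percent under GA. The rule used these contrasts, so nothing is read from that count. Each family count above includes the call of the member itself.

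Wider lists of genes by name held few members. Of 24 lists, 8 held any, with 1 gene each: auxin (IAA26), cytokinin (LOGL3), jasmonate (JAZ12), cell wall (EXLA4), redox (CAT-A), lipids (LTP110-A), defence (Chib3H-a) and transcription factors (NAC067). The auxin list had 51 probes, of which 9 were called higher and 19 lower under ABA, and 18 higher and 19 lower under GA. The transcription factor list had 308 probes, with 74 higher and 61 lower under ABA and 82 higher and 88 lower under GA. The redox list had 67 probes (13 higher and 28 lower under ABA, 17 higher and 19 lower under GA) with a median of −0.02 under either hormone. Lists of 124 transporter, 76 ABA, 15 GA, 33 heat shock, 21 ribosomal and 18 photosynthesis probes held none. Neither did 5 leaf, 3 meristem and 2 endosperm storage probes. The 5 genes set aside by name could not count as members of any list. Of them, PP2C68 (1.73 under ABA, 0.40 under GA), GLU14, Agglutinin and RPA1C did meet the numeric rule. An empty list is therefore no sign that all its genes failed the rule. The lists match gene names, so the 86 member genes with only a locus number could enter none of them. Name patterns also catch some unrelated proteins and miss related ones. Only 8 of the 18 named member genes were in any list. DAO and ILL2, described above with auxin, were in none, and neither were PLA2-III, PPDK2 and FBA3. The count of members in a list is therefore not the count of named members with that role.

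Each hormone had 2 arrays in each dye orientation, so an additive dye effect cancels in the means. Taking the orientations apart, 26 of the 40 raised and 44 of the 69 lowered probes were past 0.4 in both orientations of both hormones. On each of the 8 arrays singly, 23 and 37 were. For the raised probes the Cy3 arrays had a median of 0.58 and the Cy5 arrays 0.66 under ABA, with 0.80 and 0.79 under GA. For the lowered probes it was −0.58 and −0.68 under ABA, and −0.64 and −0.69 under GA. The widest split under ABA was that of LOC4350442, at 0.07 in Cy3 and 0.88 in Cy5. LOC9270165 was at −0.08 in Cy3 and −0.80 in Cy5. Under GA it was that of DAO, at −0.61 in Cy3 and −1.15 in Cy5.

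**Figure D5:**
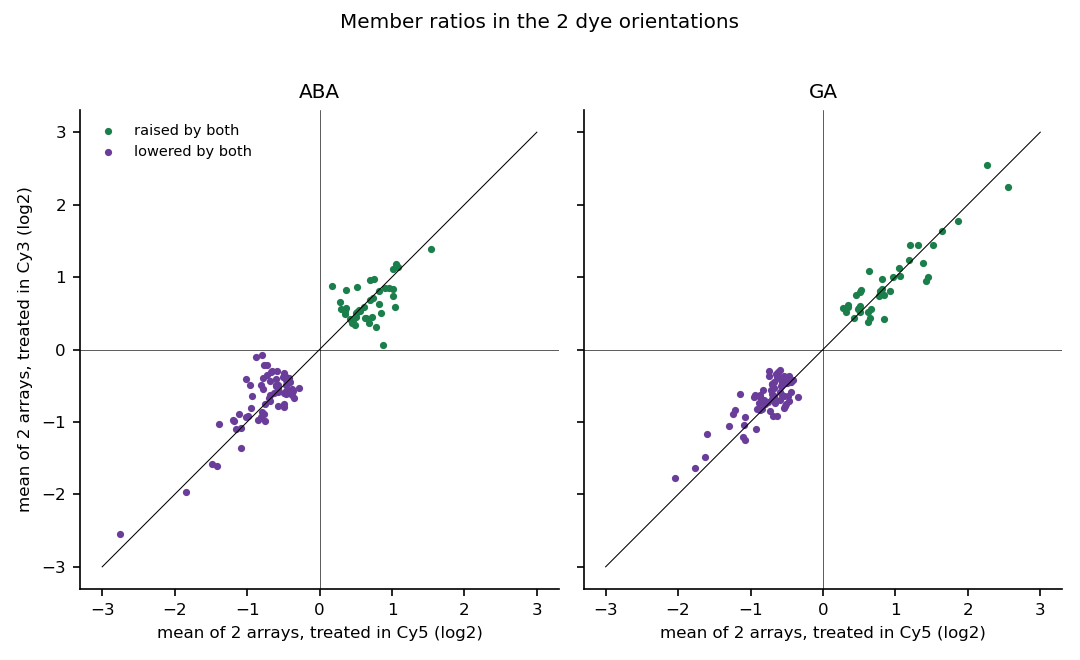
Mean log2 ratio of the 2 arrays with the treated sample in Cy3 (vertical axis) against the mean of the 2 arrays with it in Cy5 (horizontal axis) for each member probe under ABA (left) and GA (right). The diagonal line marks equal values. Points lie closer to it under GA than the farthest points under ABA, where LOC4350442 has 0.07 in Cy3 and 0.88 in Cy5.

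The threshold separates neighbours of nearly equal value. The raised probes just inside it were ILL2 (0.40 under ABA, 0.64 under GA), LOC4335749 (0.52 and 0.41) and FBA3 (0.41 and 0.50). Just outside were LOC4347695 (0.397 and 0.67), LOC4352591 (0.49 and 0.392) and LOC4330520 (0.392 and 0.45). Among the lowered, LOC4342393 (−0.41 and −0.65), LOC4343853 (−0.41 and −1.01) and LOC4341287 (−0.41 and −0.58) were just inside. LOC4324627 (−0.3998 and −0.72), LOC4333679 (−0.80 and −0.399) and LOC4326874 (−0.67 and −0.398) were just outside. Taken alone, the ABA condition of the rule was met by 2.88 percent of probes upward and 4.23 percent downward, and the GA condition by 7.26 percent upward and 5.01 percent downward.

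The direction of the ratios limits every result above. The labels describe treated divided by untreated signal. As deposited, however, opposite-dye arrays had correlations between −0.60 and −0.50 within ABA and between −0.82 and −0.70 within GA, over the probes fitted. The values were therefore read as 1 fixed dye ratio. That Cy5 is the numerator was taken from convention. With Cy3 as the numerator on all 8 arrays every sign would turn, so the 40 raised probes would be lowered by both and the 69 lowered probes raised by both. Were the GA arrays alone turned, none of the 109 probes would meet the rule, and 182 others would be raised and 293 lowered by both. It is not stated if 1 untreated sample served several arrays. In that case, higher ratios under both hormones and a lower value in that untreated sample cannot be told apart. Separate cultures for the 4 arrays of a hormone are not stated either, so the SD may be technical.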

How the data were processed

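Each of the 8 arrays (NIAS 22K rice oligo array) carried treated and untreated callus in 2 dyes. Per the labels, the authors LOWESS-normalized the ratio of treated to untreated signal. The deposited values were taken as log10 ratios, the convention of the array maker's software, because the log base is not given in the sources used here; nor are the background correction and spot quality. No count or depth applies to them, and the number of arrays limits the precision.

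Values were multiplied by 3.32 to give log2, the sign was turned on arrays with the treated sample in Cy3, and exact zeros (92 to 243 per array) were set to missing. Of 22575 features, 17788 have a listed gene and 17769 have 1 gene. Probes were named through RefSeq (ASM3414082v1), in which 2144 of the 15641 genes carry a name beyond a locus or clone number. That annotation's coordinates were not used beyond gene order, and no sequences were used here. A planned search for promoter motifs was therefore not run.

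Probes with at least 3 values per hormone (17763) entered limma (version 3.58.1, R 4.3.3). Its model held 1 coefficient per hormone and a dye effect common to both (5 residual degrees of freedom). The call threshold was an adjusted p of 0.05 after Benjamini-Hochberg. The rule used both contrasts, so no test was made on the members. The members and lists were chosen with earlier results of these data known, and the gene families after the members were known. Lists matched gene names and synonyms, since the annotation has no product descriptions. Every named member is given, together with the members with the largest weaker mean, the largest and smallest differences between the hormones, those at the threshold and those with several probes. Neighbours, and members with wide dye splits, were chosen after their values were seen.

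Alternatives were other thresholds, no sign rule, median centring, scale and quantile normalization, zeros kept, gene means, each array left out, the GA arrays turned, the order of the hormones' responses under other scalings (chosen after seeing the data), and the fit with no dye term or with a dye term for each hormone.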

Additional observations from a re-analysis of the deposited data

Results flagged for a closer look

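In 8 of the 218 sets of 4 arrays (109 probes under 2 hormones), 1 array stood apart from the other 3 by Dixon's criterion, which is 3.67 percent, against about 1 in 20 by chance for 4 exchangeable arrays. These arrays are pairs of equal dye, so that rate is only a rough guide. PPDK2 read 0.44 on GA array 08, against 0.57 to 0.59 on the others, and LOC4344199 read 0.42 there, against 0.57 to 0.59. LOC4326578 read −0.86 on GA array 08, against −0.76 to −0.75, and −1.05 on ABA array 20, against −0.81 to −0.80. LOC4352087 read −1.01 on ABA array 20, against −0.79 to −0.75. LOC4335993 read −0.51 on GA array 07, against −0.94 to −0.87. LOC4348311 read −0.56 on ABA array 24, against −0.64 to −0.62. LOC4333648 read 0.71 on ABA array 23, against 0.688 to 0.691 on the others.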

How the results depend on the processing

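The number of probes raised and lowered by both hormones depends on the threshold. It was 84 and 176 at 0.3, and 25 and 42 at 0.5, against 40 and 69 at 0.4. With the GA arrays turned it was 182 and 293. These are the probes of opposite direction counted at the start, so by definition none could be shared. Leaving out each array in turn gave 36 to 44 raised probes (35 to 40 of the 40 kept) and 67 to 83 lowered ones (64 to 69 of the 69 kept). No sign rule, zeros kept, median centring, quantile and scale normalization gave 40 to 43 and 68 to 72, and gene means gave 37 and 60 genes. Quantile normalization kept only 36 of the 40 raised probes, and median centring 66 of the 69 lowered ones. The raised probes with the larger response under GA numbered 17 of 40 after quantile normalization, against 28 as deposited, 28 with median centring and 27 with scale normalization. For the lowered probes this was 40, 46 and 37 of 69 with quantile, median and scale settings, against 41; these comparisons were chosen after seeing the data. Without the dye term the fit called 4438 probes under ABA and 6241 under GA, against 7424 and 8708 with it. A dye term for each hormone gave 8946 under ABA and 9987 under GA. The shares of all probes called thus depend on how the dye is modelled. Leaving out 1 array gave 5535 to 8853 under ABA and 7232 to 9655 under GA. None of the 218 hormone means of members reversed under median centring, quantile normalization or an array left out. With an array left out none could reverse, because the rule requires the same sign on every array. Centring could not reverse means of at least 0.4 in size either, as the array medians lay between −0.0134 and 0.0048. Nothing is therefore read from the lack of reversals in those settings. Of the 218 means, 38 moved by more than 1 SD with quantile normalization and 3 with median centring. No paired analysis was possible because the array numbers of ABA and GA do not overlap. Those numbers fall in separate ranges, so a batch of arrays and the hormone cannot be told apart.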

Other observations

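Among the 4787 features with no listed gene, 7 met the same numeric rule upward and 5 downward. Their means reached 0.69 under ABA and 0.97 under GA upward, and −0.77 under ABA and −1.01 under GA downward. No gene could be given for them.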
